A study of Mus musculus with 14 samples.

Results

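The genes of DNA damage signalling and repair were compared over 4 genotypes of mouse small intestinal organoids. They are a list of 52 genes, fixed by name and sorted by repair pathway, of which 51 had a row among the 18781 genes of the deposited table; H2afx was not analysed here. All 51 had a mean of at least 10 on the linear scale and were therefore among the 12802 genes tested. The organoids are epithelial cultures grown from intestinal stem cells, kept in Intesticult growth medium without any treatment. The 4 WT libraries came from organoids with floxed alleles of both genes (ATG16L1flox/flox_RNaseH2Bflox/flox) and no Cre recombinase. The 4 *Atg16l1* ΔIEC libraries (ATG16L1flox/flox_VillinCre+/-), the 2 *Rnaseh2b* ΔIEC libraries (RNaseH2Bflox/flox_VillinCre+/-) and the 4 *Atg16l1/Rnaseh2b* ΔIEC libraries (double knockout, ATG16L1flox/flox_RNaseH2Bflox/flox_VillinCre+/-) carried Cre under the Villin promoter, which is active in intestinal epithelial cells. WT organoids thus carried the floxed alleles of both genes, while each single knockout carried those of 1 gene.

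*Rnaseh2b* encodes a subunit of RNase H2, the enzyme that starts the removal of ribonucleotides built into DNA, and *Atg16l1* encodes a scaffold protein of autophagy. Cells sense breaks and stalled replication forks through the kinases ATM, ATR and DNA-PK, which pass the signal to the checkpoint kinases and to chromatin-bound mediators. Breaks are then rejoined by homologous recombination or end joining, whereas damaged bases, adducts, mismatches and crosslinks have pathways of their own, and translesion polymerases copy past lesions that remain. The comparisons ask whether the transcripts of these pathways differ when *Rnaseh2b*, *Atg16l1* or both are deleted in the epithelium.

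Each targeted gene was lower in the libraries in which it was deleted than in WT libraries. *Atg16l1* ranged from 9.43 to 9.54 on the log2 scale in WT, from 6.73 to 7.35 in *Atg16l1* ΔIEC and from 8.14 to 8.57 in double knockout libraries. *Rnaseh2b* ranged from 8.41 to 8.70 in WT, from 7.15 to 7.21 in *Rnaseh2b* ΔIEC and from 7.68 to 7.92 in double knockout libraries. Both transcripts were thus higher in double knockout than in the respective single knockout organoids, and the part of this in the results was not tested. All WT libraries were sequenced in lane 1 and all single knockout libraries in lane 2, with 2 double knockout libraries in each lane, so that lane and genotype cannot be told apart when a single knockout is compared with WT. Libraries 1 and 2 of a genotype, and likewise 3 and 4, deviated together from their genotype mean (correlation across genes from 0.406 to 0.864) in the other genotypes. The 2 *Rnaseh2b* ΔIEC libraries were taken as 1 such pair from their numbers, which 2 libraries cannot show. The labels do not say that the libraries came from separate cultures or animals, so the p-values measure only the spread between these libraries. Fewer cells of a type and less RNA per cell cannot be told apart in such bulk samples.

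Against WT, the repair genes that passed the test were mostly lower in either single knockout, and in double knockout organoids they were split evenly. In *Rnaseh2b* ΔIEC organoids, 2 of the 51 genes rose and 8 fell (19.6%, where 26.7% of all genes tested were called; limma with Benjamini-Hochberg adjustment over all 12802 genes). In *Atg16l1* ΔIEC organoids, 4 rose and 10 fell (27.5%, where 19.1% of all genes were called). In double knockout organoids, 3 rose and 3 fell (11.8%, where 16.1% of all genes were called). The share that rose was 3.92%, 7.84% and 5.88% in these comparisons, beside 14.4%, 8.73% and 8.1% of all genes, and the share that fell was 15.7%, 19.6% and 5.88%, beside 12.3%, 10.4% and 8.01%. The median log2 difference of the 51 genes was -0.05, -0.04 and 0.04, respectively, and that of all genes tested was 0.00 each time. These 3 comparisons share the WT libraries.

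Compared with the single knockouts, the repair genes that passed the test in double knockout organoids were nearly all higher. Against *Rnaseh2b* ΔIEC organoids, 13 rose and 1 fell (27.5%, where 25.5% of all genes were called), and against *Atg16l1* ΔIEC organoids, 16 rose and 1 fell (33.3%, where 25.1% of all genes were called). The share that rose was 25.5% and 31.4%, beside 11.1% and 12.6% of all genes. Within lane 2, the counts were 12 higher and 1 lower in either comparison, where 21% and 24.4% of all genes were called, and within lane 1, 2 rose and 2 fell against WT (10.2% of all genes). The share of all genes that rose within lane 2 was 8.93% and 12.1%. Within each lane, the double knockout libraries were 1 pair of those that deviated together. The tests within a lane count such a pair as 2 separate libraries. Between the single knockouts, 1 gene rose and 1 fell in *Rnaseh2b* ΔIEC relative to *Atg16l1* ΔIEC organoids (3.92%, where 6.81% of all genes were called, 4.34% higher and 2.47% lower). Within lane 2 the latter alone was called (8.25% of all genes, 5.35% higher). The differences were small throughout, with a largest absolute log2 difference of 0.541 among all 6 pairwise comparisons.

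**Figure D1:**
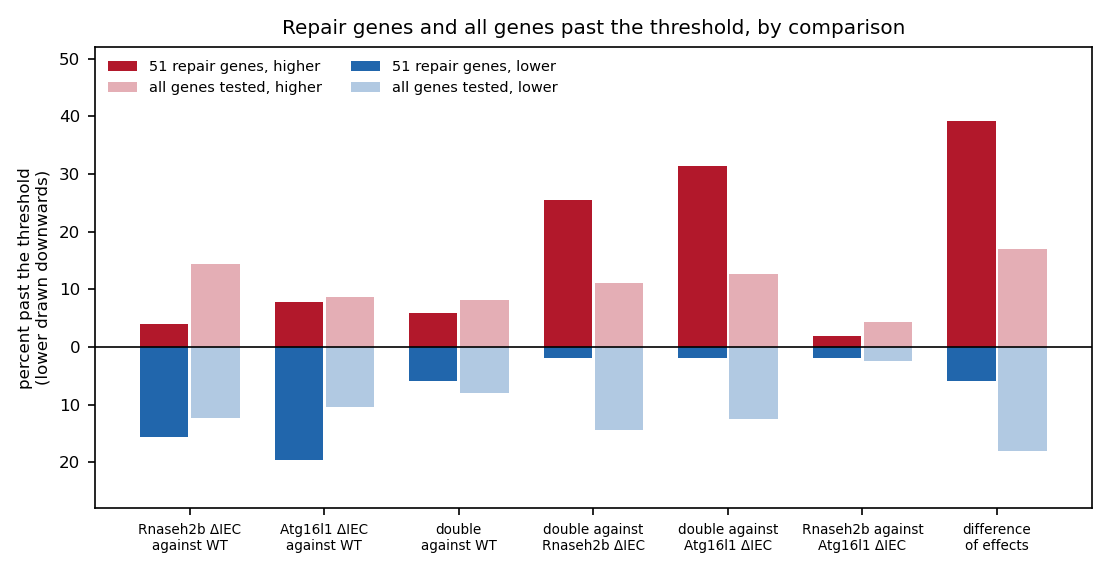
Share of the 51 repair genes (dark bars) and of all 12802 genes tested (light bars) past the limma threshold in each comparison, in percent, with genes that were higher drawn upwards and genes that were lower drawn downwards. The dark upward bars are the taller ones where double knockout organoids are compared with either single knockout (25.5% and 31.4%, beside 11.1% and 12.6%) and in the difference of effects (39.2%, beside 17%). In a wider list of other repair genes, not drawn, the positive share in the difference of effects was near that of all genes.

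Whether the deletion of *Rnaseh2b* went with another change when *Atg16l1* was deleted too was tested directly. For each gene, the difference between *Rnaseh2b* ΔIEC and WT was subtracted from the difference between double knockout and *Atg16l1* ΔIEC organoids, and this difference of effects was positive for 20 and negative for 3 of the 51 repair genes (45.1%, where 35.1% of all genes were called). The positive share was 39.2%, beside 17% of all genes, and the negative share was 5.88%, beside 18.1%. In a wider list of other repair genes, given below, the positive share was near that of all genes. The genes and lists were chosen with earlier results of these data known, so the shares describe these 51 genes and not repair genes in general. The median over the 51 genes was 0.10. The difference of effects includes the comparison of *Rnaseh2b* ΔIEC with WT organoids, so lane and genotype cannot be told apart in it either. When each pair of libraries was entered as a random block, 6 genes kept a positive difference of effects, namely *Polh*, *Rad50*, *Lig3*, *Atm*, *Chek1* and *Atr*. The pairwise comparisons then held 2, 1, 0, 1, 1 and 0 calls in the order given above (12.1% of all genes for the difference of effects, and 5.69%, 3%, 0.664%, 5.41%, 3.73% and 0.476% for the pairwise comparisons). Most pairwise calls described below were thus lost in this fit, among them all 6 in double knockout organoids against WT. The limma p-values of single genes below come from fits without the pairs. Since only double knockout libraries were in both lanes, a lane term rests on their replicates 1 and 2 against 3 and 4. Such a term cannot be told apart from the difference between these pairs. With lane as a covariate (lane-adjusted values below), the pairwise counts were 6, 8, 6, 17, 17 and 4 (11.7%, 12.4%, 11.1%, 27.1%, 31.1% and 12.7% of all genes). Of the calls against WT, those of *Atm*, *Chek1*, *Lig3* and *Polh* were then kept in *Rnaseh2b* ΔIEC organoids and those of *Atm*, *Parp2*, *Polh* and *Rad50* in *Atg16l1* ΔIEC organoids. The other 6 and 10 were lost, whereas *Fancm* and *Rev3l*, and *Chek1*, *Msh6*, *Prkdc* and *Rev3l*, respectively, fell. For the difference of effects, 14 genes were called, 13 of them positive (20.2% of all genes were called). The calls of *Fancc*, *Mdc1*, *Parp1*, *Pms2*, *Rev1*, *Xpc* and *Xrcc1* and the 3 negative ones were lost, and *Parp2* was negative instead. Of the 21 genes called in none of the 7 comparisons without lane in the model, which are described below as having passed no test, *Ercc1*, *Mre11a*, *Rad51c* and *Rad54l* were called in 1 comparison with it. *Ercc4*, *Fancd2*, *Palb2* and *Top3a* were called in 1 comparison under at least 1 other alternative. Leaving out 1 library at a time, 13 of the 23 genes were called every time, and without *Rnaseh2b* ΔIEC replicate 2 the count was 13. The calls of *Msh6*, *Rev3l*, *Prkdc*, *Rev1*, *Parp1*, *Nbn*, *Xpc*, *Tdp2*, *Xrcc1* and *Pms2* were the ones lost without at least 1 library, *Rnaseh2b* ΔIEC replicate 2 being among them for each.

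**Figure D2:**
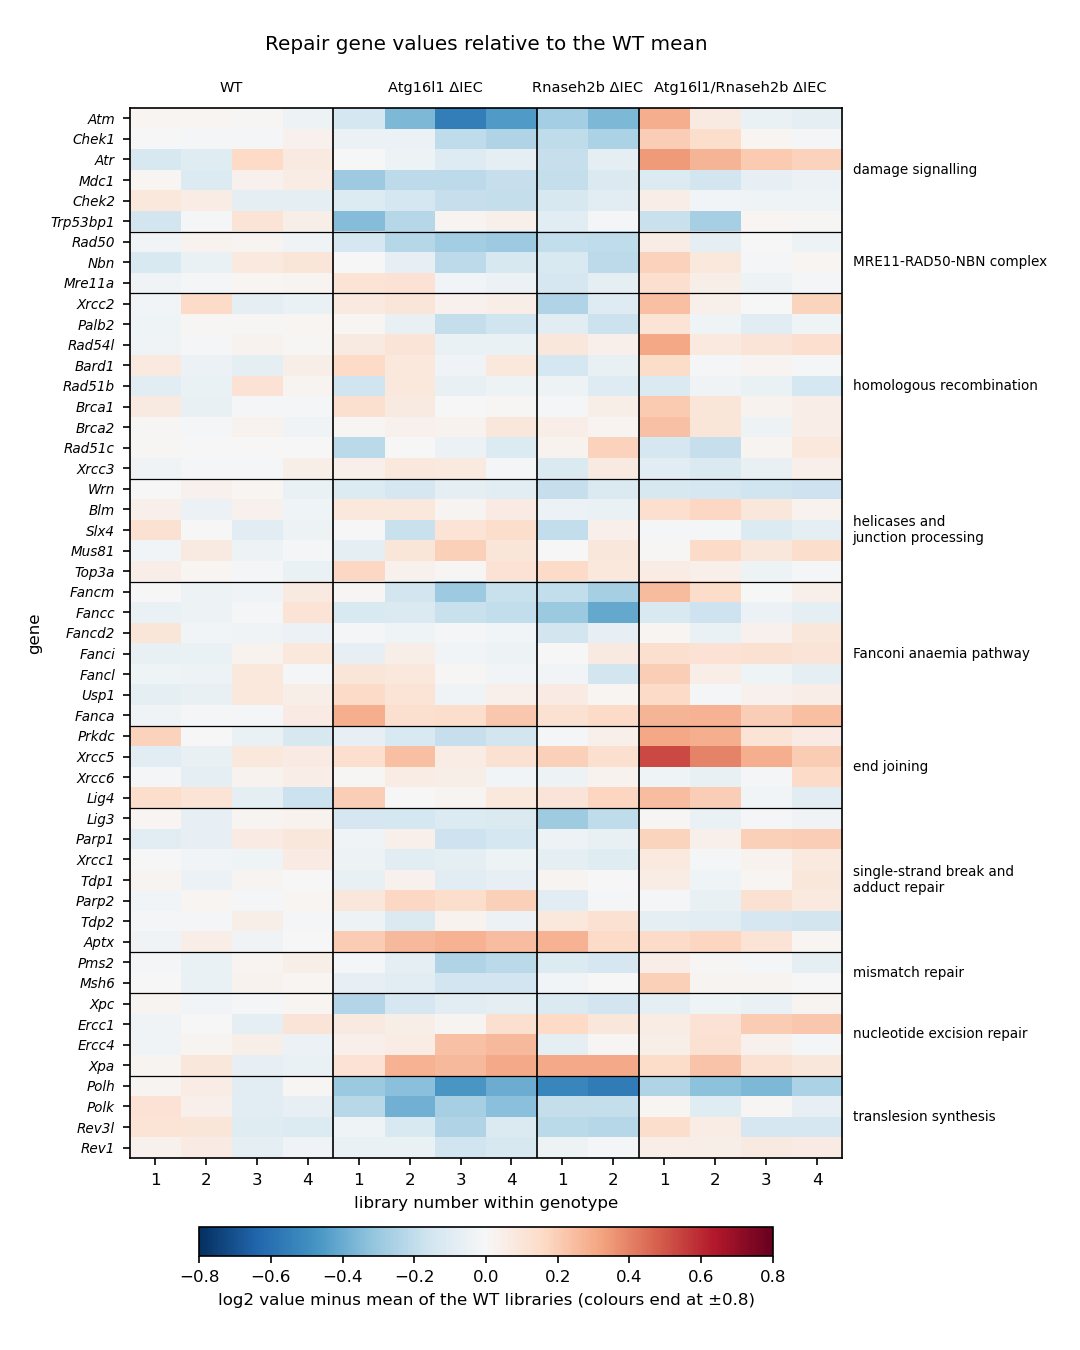
Values of the 51 repair genes in each of the 14 libraries, as the log2 value minus the mean of the 4 WT libraries (red higher, blue lower), with genes ordered by pathway and libraries by genotype. Blue cells gather in the *Atg16l1* ΔIEC and *Rnaseh2b* ΔIEC columns for *Atm*, *Rad50*, *Polh* and *Polk*, of which *Polh* is blue in all 4 double knockout libraries too. *Xrcc5*, *Atr* and *Fanca* are red in all 4 double knockout libraries.

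Of the kinases and mediators of damage signalling, *Atm*, *Chek1*, *Mdc1* and *Chek2* were the ones that fell in a single knockout, and *Atr* was the one that rose against WT. The difference of effects was positive for 5 of the 6 measured genes, with a median of 0.36. *Atm* (ENSMUSG00000034218, chromosome 9, 53439149 to 53536740 of GRCm38) encodes the kinase that responds to double-strand breaks. Its log2 values were 9.43, 9.43, 9.42 and 9.37 in WT, 9.27, 9.05, 8.86 and 8.96 in *Atg16l1* ΔIEC, 9.14 and 9.05 in *Rnaseh2b* ΔIEC and 9.70, 9.48, 9.36 and 9.34 in double knockout libraries. All single knockout libraries lay below every WT library, whereas the double knockout libraries lay on both sides of the WT values. *Atm* fell against WT in *Rnaseh2b* ΔIEC organoids, with a log2 difference of -0.32 (standard error 0.11, limma adjusted p = 0.042), and in *Atg16l1* ΔIEC organoids, with -0.38 (standard error 0.09, limma adjusted p = 0.0094). It was higher in double knockout than in *Atg16l1* ΔIEC organoids, at 0.44 (standard error 0.09, limma adjusted p = 0.0039), and than in *Rnaseh2b* ΔIEC organoids, at 0.38 (standard error 0.11, limma adjusted p = 0.02). Within lane 2 these differences were 0.56 (limma adjusted p = 0.012) and 0.50 (limma adjusted p = 0.028). The difference of effects was the largest among the repair genes, at 0.75 (standard error 0.14, limma adjusted p = 0.0013), and ranged from 0.68 to 0.83 when 1 library at a time was left out. The call in *Rnaseh2b* ΔIEC against WT was lost in 9 of the 14 fits that left out a library, with values from -0.36 to -0.27, and was kept without *Atg16l1* ΔIEC replicates 1 and 3 and double knockout replicates 1, 3 and 4. The call between double knockout and *Rnaseh2b* ΔIEC was lost without either *Rnaseh2b* ΔIEC library (0.30 to 0.42 over all fits).

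*Atr* (ENSMUSG00000032409, chromosome 9, 95857597 to 95951781 of GRCm38) encodes the kinase that responds to stalled replication forks. Its log2 values were 9.75, 9.79, 10.04 and 9.95 in WT, 9.89, 9.84, 9.78 and 9.81 in *Atg16l1* ΔIEC, 9.70 and 9.81 in *Rnaseh2b* ΔIEC and 10.22, 10.16, 10.09 and 10.07 in double knockout libraries. Every double knockout library was above every library of the other genotypes, although the lowest of them, at 10.07, was close to the highest WT library. *Atr* rose in double knockout organoids against WT by 0.25 (standard error 0.06, limma adjusted p = 0.016), against *Rnaseh2b* ΔIEC by 0.38 (standard error 0.07, limma adjusted p = 0.0032) and against *Atg16l1* ΔIEC organoids by 0.31 (standard error 0.06, limma adjusted p = 0.0039). The values were 0.20 (limma adjusted p = 0.17) within lane 1 for WT, and 0.44 (limma adjusted p = 0.0045) and 0.36 (limma adjusted p = 0.0044) within lane 2 for the single knockouts. The call against WT was lost without WT replicate 1 or 2, and that against *Rnaseh2b* ΔIEC without *Rnaseh2b* ΔIEC replicate 1, with values from 0.21 to 0.30 and 0.33 to 0.44 over all fits. The lane-adjusted rise over WT was 0.20 (limma adjusted p = 0.093). The single knockouts did not pass the test against WT, at -0.13 (limma adjusted p = 0.21) in *Rnaseh2b* ΔIEC and -0.05 (limma adjusted p = 0.56) in *Atg16l1* ΔIEC organoids.

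*Chek1* (ENSMUSG00000032113, chromosome 9, 36708482 to 36727065 of GRCm38) and *Chek2* (ENSMUSG00000029521, chromosome 5, 110839979 to 110874145 of GRCm38) encode the checkpoint kinases downstream of ATR and ATM. *Chek1* read 8.83, 8.81, 8.82 and 8.86 in WT, 8.78, 8.79, 8.63 and 8.59 in *Atg16l1* ΔIEC, 8.63 and 8.58 in *Rnaseh2b* ΔIEC and 9.03, 8.97, 8.85 and 8.82 in double knockout libraries. It was below every WT library in all single knockout libraries, and above every single knockout library in all double knockout libraries. *Chek1* fell in *Rnaseh2b* ΔIEC organoids, at -0.23 (standard error 0.07, limma adjusted p = 0.028), and its value in *Atg16l1* ΔIEC organoids was -0.13 (limma adjusted p = 0.12). Lane-adjusted, these values were -0.39 (limma adjusted p = 0.016) and -0.30 (limma adjusted p = 0.036). In double knockout organoids it was higher than in *Rnaseh2b* ΔIEC, by 0.32 (standard error 0.07, limma adjusted p = 0.0062), and than in *Atg16l1* ΔIEC organoids, by 0.22 (standard error 0.06, limma adjusted p = 0.015). Within lane 2 these values were 0.40 (limma adjusted p = 0.014) and 0.30 (limma adjusted p = 0.021). The fall was no longer called without WT replicate 4 or either *Rnaseh2b* ΔIEC library (-0.25 to -0.21). The rise over *Rnaseh2b* ΔIEC was lost without *Rnaseh2b* ΔIEC replicate 2 (0.28 to 0.35), and the rise over *Atg16l1* ΔIEC without *Atg16l1* ΔIEC replicate 3 or 4 (0.18 to 0.25).

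*Chek2* read 10.40, 10.37, 10.24 and 10.23 in WT, 10.20, 10.17, 10.12 and 10.12 in *Atg16l1* ΔIEC, 10.18 and 10.22 in *Rnaseh2b* ΔIEC and 10.36, 10.29, 10.28 and 10.27 in double knockout libraries. The WT and double knockout libraries overlapped, and all single knockout libraries lay below both. It fell in *Atg16l1* ΔIEC organoids against WT, at -0.16 (standard error 0.04, limma adjusted p = 0.017), and was higher in double knockout than in *Atg16l1* ΔIEC organoids, by 0.15 (standard error 0.04, limma adjusted p = 0.02) or 0.17 (limma adjusted p = 0.023) within lane 2. These calls were lost without WT replicate 2 or *Atg16l1* ΔIEC replicate 4, and without *Atg16l1* ΔIEC replicate 3 or 4 or double knockout replicate 1, respectively (-0.18 to -0.13 and 0.13 to 0.16 over all fits). The lane-adjusted fall was -0.21 (limma adjusted p = 0.071). *Mdc1*, which encodes a mediator bound to damaged chromatin, ranged from 10.84 to 11.02 in WT, from 10.66 to 10.77 in *Atg16l1* ΔIEC, from 10.77 to 10.84 in *Rnaseh2b* ΔIEC and from 10.81 to 10.91 in double knockout libraries. It fell in *Rnaseh2b* ΔIEC, at -0.15 (limma adjusted p = 0.037), and in *Atg16l1* ΔIEC organoids, at -0.22 (limma adjusted p = 0.0025), and was higher in double knockout than in *Atg16l1* ΔIEC organoids, by 0.13 (limma adjusted p = 0.033) or 0.09 (limma adjusted p = 0.12) within lane 2. The first call was lost without WT replicate 1, 3 or 4 or either *Rnaseh2b* ΔIEC library (-0.19 to -0.12). The last was lost without *Atg16l1* ΔIEC replicate 1, 3 or 4 or double knockout replicate 1, 3 or 4 (0.11 to 0.15). No *Mdc1* call was kept with lane as a covariate, the falls being -0.08 (limma adjusted p = 0.48) and -0.15 (limma adjusted p = 0.15). *Trp53bp1*, which encodes a mediator that favours end joining, read 9.11, 9.25, 9.37 and 9.30 in WT, 8.91, 9.03, 9.28 and 9.30 in *Atg16l1* ΔIEC, 9.17 and 9.25 in *Rnaseh2b* ΔIEC and 9.08, 9.0, 9.28 and 9.27 in double knockout libraries. It overlapped between all genotypes, with libraries 1 and 2 low and 3 and 4 high in *Atg16l1* ΔIEC and double knockout organoids, and its difference of effects was 0.08 (95% confidence interval -0.24 to 0.39).

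**Figure D3:**
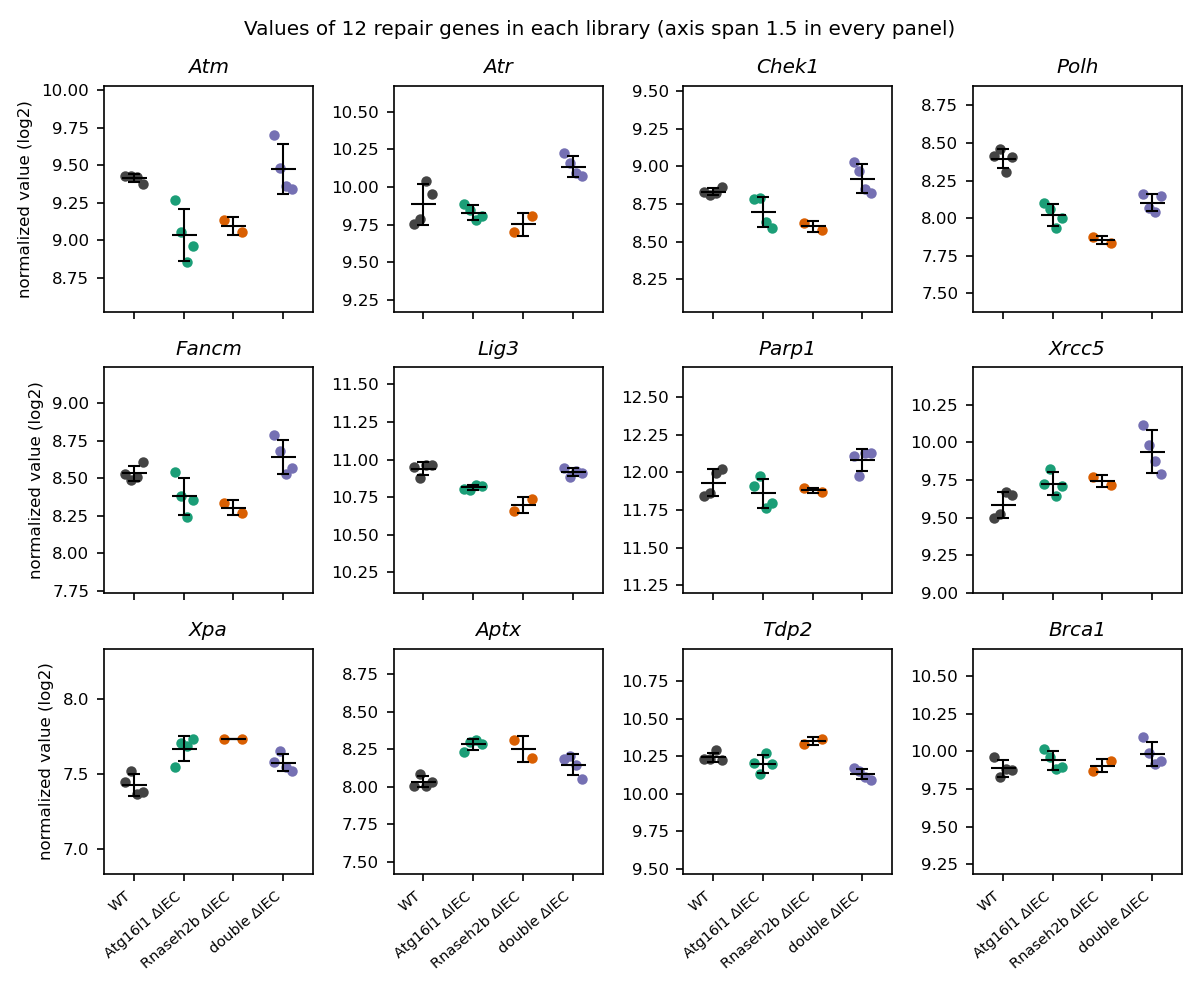
Log2 values of 12 repair genes in each library (points), with the mean (long bar) and SD (error bars) per genotype; each axis spans 1.5 units. The single knockout libraries lie below all WT libraries for *Atm*, *Chek1*, *Polh* and *Lig3* and above them for *Xpa* and *Aptx*, and *Brca1* is shown as a gene that passed no test.

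Promoter sequence was looked up for genes that moved together. RefSeq windows on GRCm38.p6, from 250 bases before to 50 bases after a gene start, were matched by symbol for 40 of the 51 genes. The letters of the E2F site, the element that drives many genes of DNA replication (TTTCCCGC, TTTGGCGC, TTTCGCGC or TTTGCCGC on either strand), were found in 7 of the 40 (17.5%) and in 704 of 27025 genes with a window (2.6%). Those of the cell cycle homology region (TTTGAA on either strand) were found in 3 of the 40 (7.5%) and in 20.2% of all genes with a window. Genes with a window were counted whether or not they were tested here, whereas all 40 repair genes were tested. Among repair genes with a positive difference of effects, 3 of 15 held E2F letters (20%), as did 4 of 23 that did not pass the test (17.4%). These 3, *Chek2* (chr5:110839733-110840032, plus strand), *Mdc1* (chr17:35841248-35841547, plus strand) and *Msh6* (chr17:87974800-87975099, plus strand), are shown with the E2F letters in capitals, beside *Atm* (chr9:53536622-53536921, minus strand), the gene with the largest difference of effects, in whose window neither set of letters was found.
Chek2: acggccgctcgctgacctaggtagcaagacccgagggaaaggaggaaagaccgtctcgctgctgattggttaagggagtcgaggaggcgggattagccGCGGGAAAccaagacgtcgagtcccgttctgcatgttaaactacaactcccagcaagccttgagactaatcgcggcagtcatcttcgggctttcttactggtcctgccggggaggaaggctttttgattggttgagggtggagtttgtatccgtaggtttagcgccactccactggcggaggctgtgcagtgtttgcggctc
Mdc1: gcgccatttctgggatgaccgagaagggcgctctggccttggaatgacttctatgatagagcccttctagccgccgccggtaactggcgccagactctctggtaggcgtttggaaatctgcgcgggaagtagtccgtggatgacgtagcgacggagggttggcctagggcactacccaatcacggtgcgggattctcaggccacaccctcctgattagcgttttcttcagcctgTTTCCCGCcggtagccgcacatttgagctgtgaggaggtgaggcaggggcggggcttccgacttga
Msh6: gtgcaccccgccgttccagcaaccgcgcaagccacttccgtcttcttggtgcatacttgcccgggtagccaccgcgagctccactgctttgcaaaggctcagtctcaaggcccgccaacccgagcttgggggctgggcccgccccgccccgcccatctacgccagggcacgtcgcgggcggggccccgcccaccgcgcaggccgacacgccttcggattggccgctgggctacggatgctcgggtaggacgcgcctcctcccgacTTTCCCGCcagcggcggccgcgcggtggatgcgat
Atm: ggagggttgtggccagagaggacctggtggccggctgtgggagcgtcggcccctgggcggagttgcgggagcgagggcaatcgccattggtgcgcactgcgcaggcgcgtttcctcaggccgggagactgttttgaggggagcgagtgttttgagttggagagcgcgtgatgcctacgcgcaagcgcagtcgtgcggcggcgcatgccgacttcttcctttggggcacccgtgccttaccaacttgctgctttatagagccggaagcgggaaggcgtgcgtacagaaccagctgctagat

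The MRE11-RAD50-NBN complex holds broken ends and activates ATM. *Rad50*, its tethering subunit, ranged from 10.39 to 10.45 in WT, from 10.13 to 10.28 in *Atg16l1* ΔIEC, from 10.21 to 10.22 in *Rnaseh2b* ΔIEC and from 10.35 to 10.47 in double knockout libraries. The single knockouts were thus separated from the other genotypes. *Rad50* fell in *Rnaseh2b* ΔIEC, at -0.20 (limma adjusted p = 0.0078), and in *Atg16l1* ΔIEC organoids, at -0.23 (limma adjusted p = 0.0013), and in double knockout organoids it was higher than in either, by 0.19 (limma adjusted p = 0.011) and 0.22 (limma adjusted p = 0.0019). Within lane 2, these values were 0.20 (limma adjusted p = 0.059) and 0.23 (limma adjusted p = 0.023). The lane-adjusted falls were -0.21 (limma adjusted p = 0.073) and -0.24 (limma adjusted p = 0.033), of which the latter alone was called. The calls between *Rnaseh2b* ΔIEC and the other genotypes were lost without either *Rnaseh2b* ΔIEC library (-0.21 to -0.19 against WT and 0.17 to 0.21 for double knockout). Its difference of effects was 0.42 (standard error 0.06, limma adjusted p = 0.00031). *Nbn*, which brings the complex to ATM, passed the test in double knockout against *Rnaseh2b* ΔIEC organoids, at 0.23 (limma adjusted p = 0.038), and in the difference of effects, at 0.33 (limma adjusted p = 0.018). The former was lost without either *Rnaseh2b* ΔIEC library or double knockout replicate 1 or 2 (0.19 to 0.28). The latter was lost without *Rnaseh2b* ΔIEC replicate 2 (0.29 to 0.38). The nuclease gene *Mre11a* passed no test, and its difference of effects was 0.10 (-0.06 to 0.25). It was higher in double knockout than in *Rnaseh2b* ΔIEC organoids when adjusted for lane, by 0.19 (limma adjusted p = 0.023).

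Of the 9 genes of homologous recombination, *Xrcc2*, which acts in strand exchange, was the one called without lane in the model. It was higher in double knockout than in *Rnaseh2b* ΔIEC organoids, by 0.29 (standard error 0.08, limma adjusted p = 0.019), with values from 7.56 to 7.80 against 7.31 to 7.45. The call was lost without either *Rnaseh2b* ΔIEC library (0.22 to 0.36). *Brca1*, *Brca2*, *Bard1*, *Palb2*, *Rad51b*, *Rad51c*, *Rad54l* and *Xrcc3* passed no test. With lane as a covariate, *Rad51c* was lower in double knockout than in *Rnaseh2b* ΔIEC organoids, at -0.26 (limma adjusted p = 0.023), and *Rad54l* was higher than in *Atg16l1* ΔIEC organoids, by 0.18 (limma adjusted p = 0.047). *Brca1*, which encodes a ubiquitin ligase acting at resected breaks, averaged 9.89 ± 0.06 (SD, n = 4) in WT and 9.98 ± 0.08 (SD, n = 4) in double knockout libraries, and its difference of effects was 0.03 (-0.13 to 0.19). The median difference of effects over the 9 genes was 0.03. Among the helicases and junction nucleases, *Mus81*, *Slx4* and *Top3a* passed no test, and *Blm*, the Bloom syndrome helicase, was higher in double knockout than in *Rnaseh2b* ΔIEC organoids, by 0.15 (limma adjusted p = 0.029), a call lost without either *Rnaseh2b* ΔIEC library or double knockout replicate 2 (0.13 to 0.18).

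*Wrn*, the Werner syndrome helicase, fell slightly in the knockouts, but in the single knockouts not with lane as a covariate. It read 9.18, 9.21, 9.19 and 9.12 in WT, 9.07, 9.04, 9.10 and 9.08 in *Atg16l1* ΔIEC, 8.99 and 9.06 in *Rnaseh2b* ΔIEC and 9.05, 9.04, 9.02 and 9.01 in double knockout libraries. No knockout library reached the lowest WT library, and the knockout genotypes overlapped with each other. *Wrn* fell in *Rnaseh2b* ΔIEC, at -0.15 (standard error 0.04, limma adjusted p = 0.018), likewise in *Atg16l1* ΔIEC, at -0.10 (standard error 0.03, limma adjusted p = 0.05), under the threshold before rounding, and in double knockout organoids, at -0.15 (standard error 0.03, limma adjusted p = 0.014), or -0.16 (limma adjusted p = 0.052) within lane 1. The lane-adjusted values were -0.18 (limma adjusted p = 0.075), -0.13 (limma adjusted p = 0.14) and -0.16 (limma adjusted p = 0.024) in that order. The call in *Rnaseh2b* ΔIEC organoids was lost without either *Rnaseh2b* ΔIEC library (-0.18 to -0.11). That in *Atg16l1* ΔIEC organoids was lost in 12 of the 14 fits that left out a library (-0.12 to -0.09), being kept without WT replicate 4 and without double knockout replicate 1.

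In the Fanconi anaemia pathway, which unhooks crosslinks, *Fanca* and *Fancc* moved in opposite directions. *Fanca*, a core complex subunit, read 9.11, 9.12, 9.12 and 9.20 in WT, 9.43, 9.26, 9.28 and 9.35 in *Atg16l1* ΔIEC, 9.26 and 9.29 in *Rnaseh2b* ΔIEC and 9.41, 9.41, 9.33 and 9.38 in double knockout libraries. All knockout libraries were above all WT libraries. *Fanca* rose in *Atg16l1* ΔIEC, by 0.19 (standard error 0.04, limma adjusted p = 0.0072), and in double knockout organoids, by 0.25 (standard error 0.04, limma adjusted p = 0.0033) or 0.22 (limma adjusted p = 0.025) within lane 1. Adjusted for lane, they were 0.14 (limma adjusted p = 0.21) and 0.22 (limma adjusted p = 0.016). Its value in *Rnaseh2b* ΔIEC organoids was 0.14 (limma adjusted p = 0.066). *Fancc*, another core subunit, read 8.25, 8.26, 8.29 and 8.41 in WT, 8.18, 8.19, 8.12 and 8.10 in *Atg16l1* ΔIEC, 8.0 and 7.89 in *Rnaseh2b* ΔIEC and 8.18, 8.14, 8.26 and 8.23 in double knockout libraries. The *Rnaseh2b* ΔIEC libraries were the lowest and did not overlap with any other genotype. *Fancc* fell in *Rnaseh2b* ΔIEC organoids, at -0.35 (standard error 0.06, limma adjusted p = 0.0015), and less in *Atg16l1* ΔIEC organoids, at -0.15 (standard error 0.05, limma adjusted p = 0.048). Neither was called when adjusted for lane, at -0.27 (limma adjusted p = 0.069) and -0.07 (limma adjusted p = 0.62). The latter call was lost in 12 of the 14 fits that left out a library (-0.17 to -0.12) and kept without double knockout replicates 1 and 2. It was higher in double knockout than in *Rnaseh2b* ΔIEC organoids, by 0.25 (standard error 0.06, limma adjusted p = 0.01), with 0.21 (limma adjusted p = 0.061) within lane 2. That call was lost without *Rnaseh2b* ΔIEC replicate 2 (0.20 to 0.31). Its difference of effects was 0.41 (limma adjusted p = 0.0019), or 0.28 (limma adjusted p = 0.13) with lane as a covariate.

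*Fancm* (ENSMUSG00000055884, chromosome 12, 65075603 to 65132058 of GRCm38), which encodes a translocase that acts at stalled forks, read 8.53, 8.49, 8.51 and 8.60 in WT, 8.54, 8.38, 8.24 and 8.35 in *Atg16l1* ΔIEC, 8.34 and 8.27 in *Rnaseh2b* ΔIEC and 8.79, 8.68, 8.53 and 8.57 in double knockout libraries. The *Rnaseh2b* ΔIEC libraries were below all WT and double knockout libraries, whereas *Atg16l1* ΔIEC replicate 1 lay among the WT values. *Fancm* was higher in double knockout than in *Rnaseh2b* ΔIEC organoids, by 0.34 (standard error 0.08, limma adjusted p = 0.011), and than in *Atg16l1* ΔIEC organoids, by 0.26 (standard error 0.07, limma adjusted p = 0.016), with 0.43 (limma adjusted p = 0.019) and 0.35 (limma adjusted p = 0.021) within lane 2. The first call was lost without either *Rnaseh2b* ΔIEC library (0.29 to 0.37) and the other without *Atg16l1* ΔIEC replicate 3 (0.21 to 0.31). *Fanci*, the partner of FANCD2, was higher in double knockout than in *Atg16l1* ΔIEC organoids, by 0.14 (limma adjusted p = 0.035), which was lost without *Atg16l1* ΔIEC replicate 1, 3 or 4 or any 1 of the double knockout libraries (0.12 to 0.16). *Fancd2*, *Fancl* and *Usp1* passed no test.

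End joining ligates broken ends without a template, through the Ku heterodimer and the kinase DNA-PK. *Xrcc5* (ENSMUSG00000026187, chromosome 1, 72307421 to 72394952 of GRCm38), which encodes the larger Ku subunit, showed the largest rise against WT among the repair genes. It read 9.50, 9.52, 9.67 and 9.65 in WT, 9.72, 9.83, 9.64 and 9.71 in *Atg16l1* ΔIEC, 9.77 and 9.72 in *Rnaseh2b* ΔIEC and 10.11, 9.98, 9.87 and 9.79 in double knockout libraries. All double knockout libraries were above all WT and *Rnaseh2b* ΔIEC libraries, and the highest were those of lane 2. *Xrcc5* rose in double knockout organoids against WT, by 0.35 (standard error 0.07, limma adjusted p = 0.0053) or 0.25 (limma adjusted p = 0.049) within lane 1. It was also higher than in *Atg16l1* ΔIEC organoids, by 0.21 (standard error 0.07, limma adjusted p = 0.032) or 0.32 (limma adjusted p = 0.011) within lane 2. These genotypes overlapped, and the call was lost without *Atg16l1* ΔIEC replicate 1, 3 or 4 or double knockout replicate 1 or 2 (0.16 to 0.26). *Xrcc6*, the smaller Ku subunit, did not pass a test, with 0.01 (-0.08 to 0.11) in double knockout organoids against WT.

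*Prkdc*, the catalytic subunit of DNA-PK, read 9.09, 8.90, 8.85 and 8.78 in WT, 8.84, 8.79, 8.72 and 8.76 in *Atg16l1* ΔIEC, 8.89 and 8.94 in *Rnaseh2b* ΔIEC and 9.22, 9.20, 9.01 and 8.97 in double knockout libraries. Libraries 1 of WT and 1 and 2 of double knockout were the highest, and all double knockout libraries were above all single knockout libraries. It was higher in double knockout than in *Atg16l1* ΔIEC organoids, by 0.32 (standard error 0.07, limma adjusted p = 0.0064) or 0.43 (limma adjusted p = 0.0026) within lane 2. Its difference of effects, 0.31 (standard error 0.11, limma adjusted p = 0.044), was lost as a call in 10 of the 14 fits that left out a library (0.25 to 0.35), and kept without WT replicate 4, *Atg16l1* ΔIEC replicate 1 and double knockout replicates 3 and 4. *Lig4*, the ligase of this pathway, passed no test.

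Single-strand breaks and adducts on their ends are repaired by PARP enzymes, the scaffold XRCC1, ligase 3 and end-cleaning enzymes. *Parp1*, which makes poly(ADP-ribose) at breaks, had the highest WT level per kilobase of the longest annotated transcript among the 51 genes (9.98 on the log2 scale, against 5.01 for *Rad51c* at the other end). It read 11.84, 11.87, 12 and 12.02 in WT, 11.91, 11.98, 11.77 and 11.79 in *Atg16l1* ΔIEC, 11.89 and 11.87 in *Rnaseh2b* ΔIEC and 12.11, 11.98, 12.13 and 12.13 in double knockout libraries. WT and single knockout libraries overlapped, and double knockout replicates 1, 3 and 4 were above all of them, with replicate 2 among the WT values. *Parp1* was higher in double knockout than in *Rnaseh2b* ΔIEC organoids, by 0.20 (standard error 0.07, limma adjusted p = 0.041), and than in *Atg16l1* ΔIEC organoids, by 0.22 (standard error 0.05, limma adjusted p = 0.011). Within lane 2, these values were 0.16 (limma adjusted p = 0.15) and 0.18 (limma adjusted p = 0.067). The first call was lost without either *Rnaseh2b* ΔIEC library and without double knockout replicate 1, 3 or 4 (0.19 to 0.24).

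*Parp2*, its paralogue, went the other way in *Atg16l1* ΔIEC organoids. It read 10.37, 10.41, 10.38 and 10.41 in WT, 10.49, 10.56, 10.53 and 10.58 in *Atg16l1* ΔIEC, 10.31 and 10.37 in *Rnaseh2b* ΔIEC and 10.38, 10.33, 10.51 and 10.47 in double knockout libraries. The *Atg16l1* ΔIEC libraries were above all WT and *Rnaseh2b* ΔIEC libraries and overlapped with the double knockout libraries. *Parp2* rose in *Atg16l1* ΔIEC organoids against WT, by 0.15 (standard error 0.04, limma adjusted p = 0.019), and was lower in *Rnaseh2b* ΔIEC than in *Atg16l1* ΔIEC organoids, at -0.20 (standard error 0.05, limma adjusted p = 0.027), or -0.20 (limma adjusted p = 0.025) with the lane 2 libraries alone. The first call was lost without *Atg16l1* ΔIEC replicate 4 (0.13 to 0.16) and the other without *Atg16l1* ΔIEC replicate 2 or 4 or either *Rnaseh2b* ΔIEC library (-0.23 to -0.17). It was lower in double knockout than in *Atg16l1* ΔIEC organoids, at -0.11 (limma adjusted p = 0.047). This call was lost in 11 of the 14 fits that left out a library (-0.14 to -0.08) and kept without *Atg16l1* ΔIEC replicate 1 and double knockout replicates 3 and 4.

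*Lig3*, the ligase that partners XRCC1, ranged from 10.87 to 10.97 in WT, from 10.80 to 10.83 in *Atg16l1* ΔIEC, from 10.66 to 10.74 in *Rnaseh2b* ΔIEC and from 10.88 to 10.95 in double knockout libraries. The order from *Rnaseh2b* ΔIEC over *Atg16l1* ΔIEC to WT held without overlap. *Lig3* fell in *Rnaseh2b* ΔIEC, at -0.24 (standard error 0.04, limma adjusted p = 0.00051), and in *Atg16l1* ΔIEC organoids, at -0.12 (standard error 0.03, limma adjusted p = 0.0098), and in double knockout organoids it was higher than in either, by 0.22 (limma adjusted p = 0.0012) and 0.10 (limma adjusted p = 0.022). Within lane 2, these values were 0.22 (limma adjusted p = 0.012) and 0.10 (limma adjusted p = 0.079). Adjusted for lane, the falls were -0.24 (limma adjusted p = 0.016) and -0.12 (limma adjusted p = 0.13), of which the former alone was called. Its difference of effects was 0.35 (standard error 0.05, limma adjusted p = 0.00018). *Xrcc1* read 10.19, 10.17, 10.16 and 10.26 in WT, 10.16, 10.11, 10.12 and 10.16 in *Atg16l1* ΔIEC, 10.12 and 10.10 in *Rnaseh2b* ΔIEC and 10.28, 10.18, 10.23 and 10.28 in double knockout libraries. The single knockout libraries were at or below the lowest WT library, and the double knockout libraries were among or above the WT libraries. *Xrcc1* was higher in double knockout than in *Rnaseh2b* ΔIEC organoids, by 0.13 (standard error 0.04, limma adjusted p = 0.03), and than in *Atg16l1* ΔIEC organoids, by 0.11 (standard error 0.03, limma adjusted p = 0.031), but at 0.12 (limma adjusted p = 0.11) and 0.09 (limma adjusted p = 0.12) within lane 2 neither was called. The first call was lost without either *Rnaseh2b* ΔIEC library or double knockout replicate 1 or 4 (0.12 to 0.15). The other was lost without *Atg16l1* ΔIEC replicate 2, 3 or 4 or double knockout replicate 1, 3 or 4 (0.09 to 0.12).

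The enzymes that clean adducts from DNA ends did not follow the kinases. *Aptx* (ENSMUSG00000028411, chromosome 4, 40682382 to 40703194 of GRCm38), which removes AMP from failed ligations, read 8.01, 8.09, 8.01 and 8.03 in WT, 8.23, 8.30, 8.31 and 8.28 in *Atg16l1* ΔIEC, 8.31 and 8.19 in *Rnaseh2b* ΔIEC and 8.19, 8.21, 8.14 and 8.05 in double knockout libraries. All single knockout libraries were above all WT libraries, and the double knockout libraries lay between and overlapped with both. *Aptx* rose in *Rnaseh2b* ΔIEC, by 0.22 (standard error 0.06, limma adjusted p = 0.015), and in *Atg16l1* ΔIEC organoids, by 0.25 (standard error 0.05, limma adjusted p = 0.0034). Its value in double knockout organoids was 0.11 (limma adjusted p = 0.11), and its difference of effects was negative, at -0.35 (standard error 0.07, limma adjusted p = 0.0033). The rise in *Rnaseh2b* ΔIEC organoids was no longer called without *Rnaseh2b* ΔIEC replicate 1 (0.15 to 0.28), and with lane as a covariate the rises were 0.12 (limma adjusted p = 0.37) and 0.15 (limma adjusted p = 0.21). Adjusted for lane, its difference of effects was -0.20 (limma adjusted p = 0.22).

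*Tdp2* (ENSMUSG00000035958, chromosome 13, 24831679 to 24842153 of GRCm38), which removes trapped topoisomerase 2, read 10.23, 10.23, 10.29 and 10.23 in WT, 10.20, 10.13, 10.27 and 10.20 in *Atg16l1* ΔIEC, 10.33 and 10.37 in *Rnaseh2b* ΔIEC and 10.17, 10.15, 10.11 and 10.09 in double knockout libraries. The *Rnaseh2b* ΔIEC libraries were the highest and the double knockout libraries were below every WT library. It was lower in double knockout than in *Rnaseh2b* ΔIEC organoids, at -0.22 (standard error 0.04, limma adjusted p = 0.003) or -0.19 (limma adjusted p = 0.037) within lane 2, a call lost without *Rnaseh2b* ΔIEC replicate 2 (-0.24 to -0.20). Against WT it fell in double knockout organoids, at -0.11 (standard error 0.03, limma adjusted p = 0.041) or -0.14 (limma adjusted p = 0.041) within lane 1. It was higher in *Rnaseh2b* ΔIEC than in *Atg16l1* ΔIEC organoids, by 0.15 (standard error 0.04, limma adjusted p = 0.049) or 0.15 (limma adjusted p = 0.076) within lane 2. Those calls were lost in 10 and 12 of the 14 fits that left out a library (-0.12 to -0.10 and 0.12 to 0.17). The former was kept without *Atg16l1* ΔIEC replicates 1, 2 and 3 and double knockout replicate 1, and the latter without *Atg16l1* ΔIEC replicate 3 and double knockout replicate 1. *Tdp2* had a difference of effects of -0.17 (limma adjusted p = 0.024), or -0.08 (limma adjusted p = 0.49) with lane as a covariate. *Tdp1*, which removes trapped topoisomerase 1, read 8.93, 8.86, 8.92 and 8.91 in WT, 8.85, 8.94, 8.82 and 8.84 in *Atg16l1* ΔIEC, 8.93 and 8.90 in *Rnaseh2b* ΔIEC and 8.96, 8.87, 8.92 and 8.99 in double knockout libraries. The genotypes overlapped and no comparison was called, with a difference of effects of 0.06 (-0.07 to 0.20).

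In nucleotide excision repair, which removes bulky lesions, *Xpa* and *Xpc* moved in opposite directions. *Xpa* (ENSMUSG00000028329, chromosome 4, 46155347 to 46196311 of GRCm38), the damage verification factor, read 7.45, 7.52, 7.37 and 7.38 in WT, 7.55, 7.71, 7.69 and 7.74 in *Atg16l1* ΔIEC, 7.73 and 7.74 in *Rnaseh2b* ΔIEC and 7.58, 7.66, 7.55 and 7.52 in double knockout libraries. All single knockout libraries were above all WT libraries. *Xpa* rose in *Rnaseh2b* ΔIEC, by 0.30 (standard error 0.07, limma adjusted p = 0.0059), and in *Atg16l1* ΔIEC organoids, by 0.24 (standard error 0.05, limma adjusted p = 0.0091), and its difference of effects was -0.40 (standard error 0.09, limma adjusted p = 0.0038). The rise in *Rnaseh2b* ΔIEC organoids was lost without either *Rnaseh2b* ΔIEC library (0.28 to 0.33), and with lane as a covariate the rises were 0.22 (limma adjusted p = 0.16) and 0.16 (limma adjusted p = 0.26) and the difference of effects was -0.27 (limma adjusted p = 0.17). *Xpc*, the damage sensor, fell in *Atg16l1* ΔIEC organoids, at -0.13 (limma adjusted p = 0.032), a call lost without any 1 of the WT libraries or *Atg16l1* ΔIEC replicate 1 or 2 (-0.15 to -0.10). Its difference of effects was 0.23 (limma adjusted p = 0.012), lost without *Rnaseh2b* ΔIEC replicate 2 (0.20 to 0.25). With lane as a covariate neither *Xpc* value was called, at -0.09 (limma adjusted p = 0.39) and 0.17 (limma adjusted p = 0.25). The nuclease genes *Ercc1* and *Ercc4* passed no test, although *Ercc1* rose in double knockout organoids against WT with lane as a covariate, by 0.21 (limma adjusted p = 0.036). In mismatch repair, *Msh6*, a subunit of the mismatch sensor, was higher in double knockout than in *Atg16l1* ΔIEC organoids, by 0.17 (limma adjusted p = 0.0099) or 0.22 (limma adjusted p = 0.02) within lane 2. The difference of effects was 0.19 (limma adjusted p = 0.041) for *Msh6* and 0.25 (limma adjusted p = 0.038) for *Pms2*, a subunit of the nicking complex, with 0.14 to 0.21 and 0.22 to 0.29 when 1 library at a time was left out.

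The translesion polymerases held the repair gene with the largest pairwise difference. *Polh* (ENSMUSG00000023953, chromosome 17, 46171355 to 46202645 of GRCm38), which encodes the polymerase that bypasses ultraviolet lesions, read 8.42, 8.46, 8.31 and 8.40 in WT, 8.10, 8.06, 7.93 and 8.0 in *Atg16l1* ΔIEC, 7.87 and 7.84 in *Rnaseh2b* ΔIEC and 8.16, 8.07, 8.04 and 8.15 in double knockout libraries. Every knockout library was below every WT library, the *Rnaseh2b* ΔIEC libraries were the lowest, and the *Atg16l1* ΔIEC and double knockout libraries overlapped. *Polh* fell in *Rnaseh2b* ΔIEC, at -0.54 (standard error 0.06, limma adjusted p = 0.00011), likewise in *Atg16l1* ΔIEC, at -0.37 (standard error 0.05, limma adjusted p = 0.0004), and in double knockout organoids, at -0.29 (standard error 0.05, limma adjusted p = 0.0039). The last value was -0.30 (limma adjusted p = 0.026) within lane 1, and with lane as a covariate the others were -0.56 (limma adjusted p = 0.0038) and -0.39 (limma adjusted p = 0.015). *Polh* was higher in double knockout than in *Rnaseh2b* ΔIEC organoids, by 0.25 (standard error 0.06, limma adjusted p = 0.013) or 0.26 (limma adjusted p = 0.046) within lane 2, a call lost without either *Rnaseh2b* ΔIEC library (0.23 to 0.27). Its difference of effects was 0.62 (standard error 0.08, limma adjusted p = 0.00016).

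*Polk*, a polymerase that bypasses bulky guanine adducts, read 8.79, 8.72, 8.58 and 8.61 in WT, 8.45, 8.29, 8.41 and 8.34 in *Atg16l1* ΔIEC, 8.48 and 8.49 in *Rnaseh2b* ΔIEC and 8.69, 8.58, 8.68 and 8.61 in double knockout libraries. The *Atg16l1* ΔIEC libraries were below those of all other genotypes. *Polk* fell in *Atg16l1* ΔIEC organoids, at -0.30 (standard error 0.05, limma adjusted p = 0.0023), or -0.29 (limma adjusted p = 0.062) with lane as a covariate, and was higher in double knockout than in *Atg16l1* ΔIEC organoids, by 0.27 (standard error 0.05, limma adjusted p = 0.0044) or 0.26 (limma adjusted p = 0.024) within lane 2. *Rev1*, the scaffold of these polymerases, was higher in double knockout than in *Atg16l1* ΔIEC organoids, by 0.16 (limma adjusted p = 0.013) or 0.15 (limma adjusted p = 0.059) within lane 2. *Rev3l*, the catalytic subunit of polymerase zeta, passed the test without lane in the model for the difference of effects alone, at 0.33 (standard error 0.11, limma adjusted p = 0.035), or 0.28 to 0.37 when 1 library at a time was left out. With lane as a covariate it also fell in *Rnaseh2b* ΔIEC, at -0.46 (limma adjusted p = 0.016), and in *Atg16l1* ΔIEC organoids, at -0.36 (limma adjusted p = 0.03). All 4 translesion genes thus had a positive difference of effects, with a median of 0.40.

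**Figure D4:**
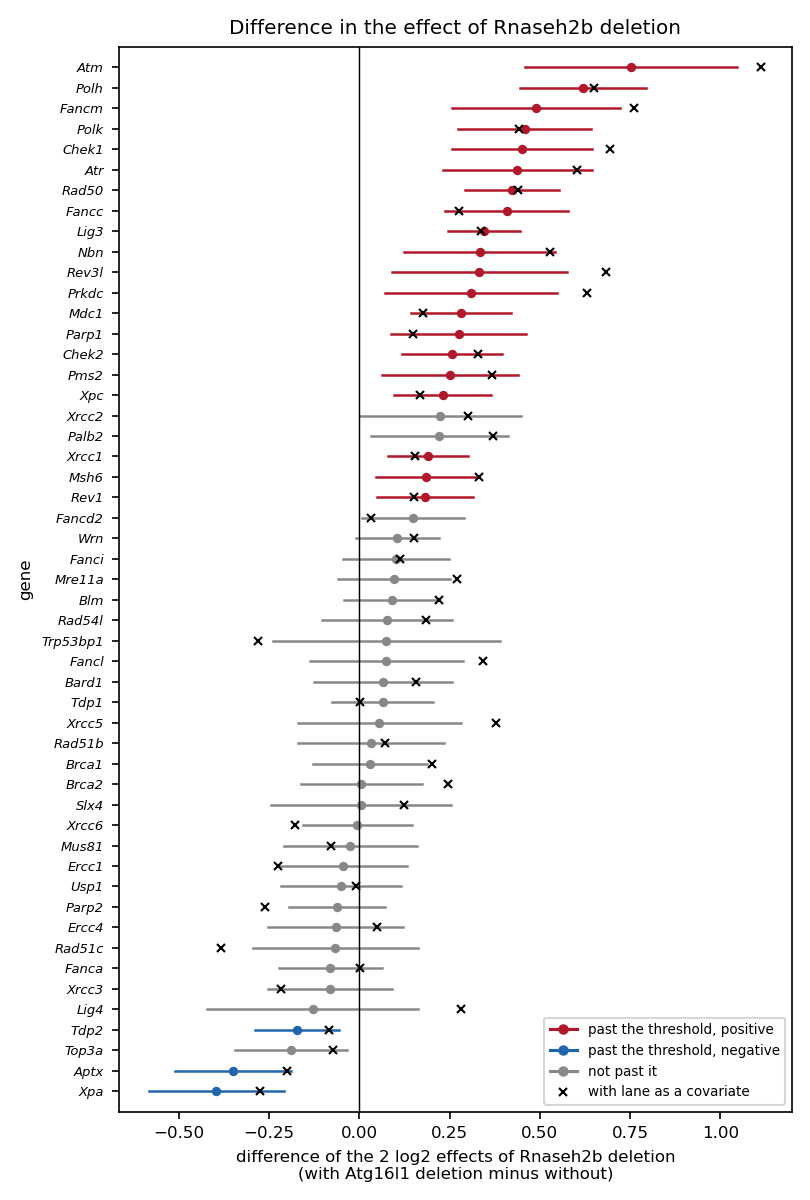
Difference of the log2 effects of *Rnaseh2b* deletion, with *Atg16l1* deleted minus with *Atg16l1* intact, for the 51 repair genes, with 95% confidence intervals (lines) and the value with lane as a covariate (crosses). The 20 red genes, from *Atm* (0.75) to *Rev1* (0.18), and the 3 blue genes, *Xpa*, *Aptx* and *Tdp2*, passed the test, and no gene that passed it changed sign with the covariate.

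In exact permutation tests of single genes (two-sided), 17 of the 51 repair genes (33.3%, beside 24.6% of all genes) reached the smallest p that 4 against 4 libraries allow, 0.029, in *Atg16l1* ΔIEC against WT. In double knockout organoids, 8 did so against WT (15.7%, beside 22.3%) and 15 against *Atg16l1* ΔIEC organoids (29.4%, beside 23.9%). Comparisons with the 2 *Rnaseh2b* ΔIEC libraries cannot go below 0.133. The permutation tests count the libraries of a pair that deviated together as separate libraries, so that 0.029 is smaller than the pairs alone would allow. In *Atg16l1* ΔIEC against WT, lane and genotype cannot be told apart.

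Transcript length moved with these differences, most in the single knockouts and the difference of effects. Over the 12783 genes tested that had an annotated length, the rank correlation of the log2 difference with the longest transcript, a description across genes of the same libraries, against WT was -0.22 for *Rnaseh2b* ΔIEC, -0.23 for *Atg16l1* ΔIEC and -0.08 for double knockout organoids. It was 0.17 and 0.15 in double knockout against *Rnaseh2b* ΔIEC and *Atg16l1* ΔIEC organoids, -0.07 in *Rnaseh2b* ΔIEC against *Atg16l1* ΔIEC organoids and 0.23 for the difference of effects. The repair genes were longer than all genes tested, with a median of 4262 against 3328 bases. The share of all genes with a positive difference of effects went from 7.41% at up to 1000 bases to 35.5% above 7000 bases. Of the repair genes above 7000 bases, 6 of 8 were positive, and of those between 3000 and 5000 bases, 8 of 19, beside 17.2% of all genes of that length. With the length trend removed, a choice made after seeing the data, 14 genes were positive and 3 negative, where 32.9% of all genes were called. *Atm* then stood at 0.60 (limma adjusted p = 0.0026), *Polh* at 0.62 (limma adjusted p = 0.00019) and *Prkdc*, with the longest transcript among the 51, at 0.12 (limma adjusted p = 0.36).

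**Figure D5:**
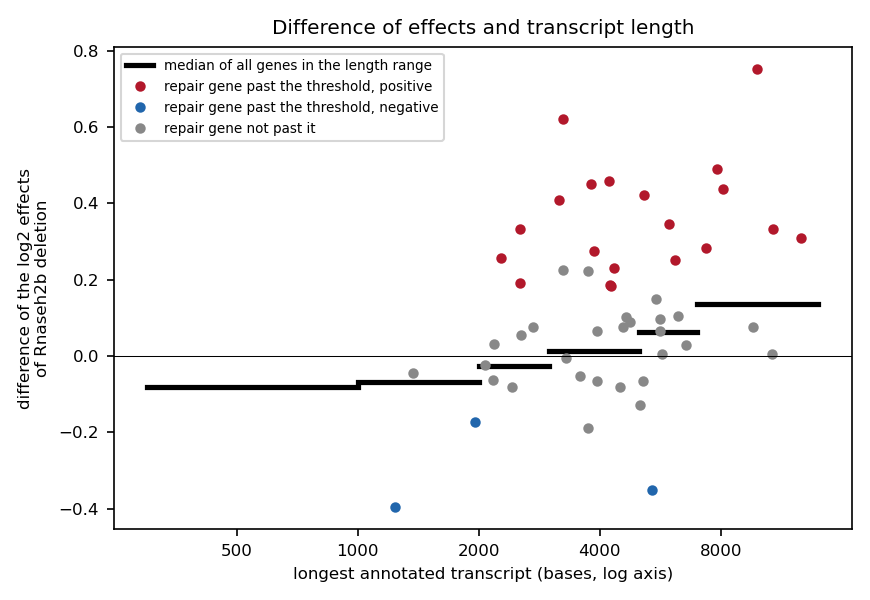
Difference of effects of the 51 repair genes (points) against their longest annotated transcript in bases (log axis), with the median of all genes in each length range (black bars). The medians of all genes run from -0.081 in the shortest to 0.137 in the longest range. Red genes were picked by a positive value of this same difference, from 0.18 (*Rev1*) upwards. Their place above the bars was thus fixed by the test.

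The cell type markers of the intestinal epithelium also differed. The summed level of 11 enterocyte markers ranged from 17.60 to 18.20 in WT, from 17.87 to 18.61 in *Atg16l1* ΔIEC, from 18.65 to 18.79 in *Rnaseh2b* ΔIEC and from 17.35 to 17.90 in double knockout libraries on the log2 scale. Of these markers, 10 rose in *Rnaseh2b* ΔIEC organoids against WT (median 1.03, where 14.4% of all genes rose) and 9 fell in double knockout relative to *Rnaseh2b* ΔIEC organoids (median -1.15, where 14.4% of all genes fell). Of 9 stem cell markers, 5 fell in *Atg16l1* ΔIEC organoids against WT (median -0.44, where 10.4% of all genes fell) and 7 rose in double knockout relative to *Atg16l1* ΔIEC organoids (median 0.48, where 12.6% of all genes rose). The summed stem cell levels ran from 14.80 to 14.95 in WT, 14.26 to 14.52 in *Atg16l1* ΔIEC, 14.48 to 14.54 in *Rnaseh2b* ΔIEC and 14.71 to 14.96 in double knockout libraries. Every single knockout library was thus below every WT and double knockout library in this level. For the difference of effects, 10 of the 11 enterocyte markers were negative (median -1.48). All 7 goblet cell markers had a positive difference of effects (median 1.04), as had 3 of 8 Paneth cell markers (0.58), 5 of 7 enteroendocrine markers (0.49) and 2 of 5 tuft cell markers (0.39). Of all genes, 17% were positive and 18.1% negative. Only 3 of 8 stromal or immune markers were high enough to be tested, and none passed the limma test in any comparison (at most 1 had an unadjusted p under 0.05), with a summed level from 8.10 to 8.62 over all libraries. The part of cell composition in the repair gene differences was not tested.

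Proliferation genes and p53 target genes were counted beside the repair genes. Of 17 proliferation genes, 5 rose and 0 fell in double knockout organoids against WT by limma (median 0.11, with 9 at an unadjusted p under 0.05), and 1 rose and 2 fell in either single knockout (medians 0.00 and 0.06). For the difference of effects, 3 were positive and 1 negative (median 0.01), beside 17% and 18.1% of all genes, so that the positive share was near that of all genes. Of 15 target genes of p53, the transcription factor that ATM and the checkpoint kinases activate, 7 rose and 1 fell in *Rnaseh2b* ΔIEC (median 0.23), 1 rose and 3 fell in *Atg16l1* ΔIEC (median -0.01), and 9 rose and 0 fell in double knockout organoids by limma (median 0.28, with 11 at an unadjusted p under 0.05). Against WT, 14.4% of all genes rose and 12.3% fell in *Rnaseh2b* ΔIEC organoids. The shares were 8.73% and 10.4% in *Atg16l1* ΔIEC and 8.1% and 8.01% in double knockout organoids. Lane and genotype cannot be told apart in the single knockouts against WT.

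A wider list of 92 other repair genes, of which 90 were tested, was counted in the same way. In *Rnaseh2b* ΔIEC organoids 3 rose and 14 fell against WT (3.33% and 15.6%, beside 14.4% and 12.3% of all genes). In *Atg16l1* ΔIEC organoids 4 rose and 9 fell (4.44% and 10%, beside 8.73% and 10.4%), and in double knockout organoids 10 rose and 2 fell (11.1% and 2.22%, beside 8.1% and 8.01%). The share that fell in the single knockouts was thus near that of all genes. *Primpol*, the primase-polymerase that restarts forks, *Poli*, a translesion polymerase, and *Rad54b*, a recombination motor, led the falls in *Rnaseh2b* ΔIEC organoids, while *Timeless*, a fork protection factor, *Polq*, the polymerase of alternative end joining, and *Fen1*, the flap nuclease, led the rises in double knockout organoids. The difference of effects was positive for 15 (16.7%, beside 17% of all genes) and negative for 3 (3.33%, beside 18.1%), so that the positive share of the wider list was near that of all genes. It was led by *Rad54b*, *Poli* and *Rad52*, a recombination mediator. Of the genes that process ribonucleotides in DNA, *Rnaseh2a* did not pass a test, at 0.01 in *Rnaseh2b* ΔIEC organoids (95% confidence interval -0.10 to 0.12). *Top1*, the topoisomerase that cuts at ribonucleotides when RNase H2 is missing, fell in *Rnaseh2b* ΔIEC (-0.17, limma adjusted p = 0.036) and in *Atg16l1* ΔIEC organoids (-0.17, limma adjusted p = 0.018) and was higher in double knockout than in either, by 0.21 (limma adjusted p = 0.012) and 0.22 (limma adjusted p = 0.0044). *Rnaseh2a* and *Top1* were chosen after their values were seen, and other genes of this kind are not described. Lane and genotype cannot be told apart in the falls of *Top1*, and its p-values come from fits without lane or the pairs.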

How the data were processed

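RNA of 14 organoid samples was sequenced after polyA selection with a stranded kit, and the deposited table holds log2 expression values per gene. Per the submitters' processing notes, the authors used cutadapt, TopHat2, HTSeq and DESeq2 with GRCm38; versions and the log2 transformation are not given in the sources used here. The methods state that 2 further *Rnaseh2b* ΔIEC samples were left out by the authors for their read counts. Read depth is unknown, since the values do not fall into steps of whole reads. Genes under 0 had a median SD of 0.004 over the libraries, against 0.151 for genes between 6 and 7, so the differences of low genes are understated. Of the gene identifiers in the deposited table, 99.7% could be given a symbol, and gene positions and transcript lengths were taken from GENCODE M21.

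A mean of 3.32 or more (10 on the linear scale) was required, which left 12802 genes, and a mean per genotype was fitted with limma 3.58.1 in R 4.3.3, with an expression trend in the variance prior, 10 residual degrees of freedom and Benjamini-Hochberg adjustment at 0.05. The scripts were tested on simulated data. All genes of the list are accounted for. Values of each library were given for *Atm*, *Atr*, *Chek1*, *Chek2*, *Trp53bp1*, *Parp1*, *Tdp1* and *Xrcc1*, and in each comparison for up to 3 called genes per direction, those with the largest differences and no overlap. Other repair genes were named by size, up to 3 per direction, *Rnaseh2a* and *Top1* being chosen after their values were seen. The genes and lists were chosen with earlier results of these data known. Alternatives changed the filter, pseudocount, scaling, lane, replicate block, pairs, variance trend and groups fitted. Permutation tests used scipy 1.17.1 and numpy 2.4.6, and figures matplotlib 3.10.9.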

Additional observations from a re-analysis of the deposited data

Results flagged for a closer look

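In 9 of 153 groups of 4 libraries (51 genes in 3 genotypes), 1 library stood apart from the other 3 by Dixon's criterion. Chance meets it in about 1 in 20 groups, or 7.65 of 153. These were WT replicate 4 for *Atm* (9.37) and *Fanca* (9.20), WT replicate 1 for *Palb2* (8.12) and *Fancd2* (9.35), WT replicate 2 for *Lig3* (10.87), WT replicate 3 for *Tdp2* (10.29), double knockout replicate 1 for *Chek2* (10.36) and *Msh6* (11.31), and double knockout replicate 2 for *Parp1* (11.98).

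The change that went with *Rnaseh2b* deletion differed between organoids with and without *Atg16l1* deletion for 23 repair genes in the limma test of the difference itself. The difference of log2 effects was positive for *Atm* (0.75), *Polh* (0.62), *Fancm* (0.49), *Polk* (0.46), *Chek1* (0.45), *Atr* (0.44), *Rad50* (0.42), *Fancc* (0.41), *Lig3* (0.35), *Nbn* (0.33), *Rev3l* (0.33), *Prkdc* (0.31), *Mdc1* (0.28), *Parp1* (0.27), *Chek2* (0.26), *Pms2* (0.25), *Xpc* (0.23), *Xrcc1* (0.19), *Msh6* (0.19) and *Rev1* (0.18). It was negative for *Xpa* (-0.40), *Aptx* (-0.35) and *Tdp2* (-0.17). With lane as a covariate, 13 of the 20 positive calls were kept and the 3 negative ones were lost. With the pairs of libraries as a random block, 6 positive calls were kept, and with the means of each pair 0 were.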

How the results depend on the processing

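The counts of repair genes called were 10, 14 and 6 in *Rnaseh2b* ΔIEC, *Atg16l1* ΔIEC and double knockout organoids against WT, 14 and 17 in double knockout against *Rnaseh2b* ΔIEC and *Atg16l1* ΔIEC organoids, 2 between the single knockouts and 23 for the difference of effects. No gene that was called changed sign under any alternative run. Changing the filter, the variance trend, the groups fitted or the pairs leaves the estimate itself as it was, so the sign could change only under the others. With lane as a covariate, the counts were 6 and 8 in the single knockouts against WT, 4 between the single knockouts and 14 for the difference of effects. With the pairs of libraries as a random block in limma, they were 2, 1, 0, 1, 1, 0 and 6 (7, 11, 6, 11, 12, 2 and 17 at an unadjusted p under 0.05), and with the means of each pair, which leave 3 residual degrees of freedom, 0 in all 7 comparisons (5, 9, 4, 8, 8, 1 and 12 at an unadjusted p under 0.05). With the random block, 2845, 2233, 2036, 2771, 2730, 1213 and 3580 of all 12802 genes had an unadjusted p under 0.05. Fitting only the groups compared gave 11 for double knockout against *Atg16l1* ΔIEC and 1 between the single knockouts (2065 and 833 of all 12802 genes), and was not run for the difference of effects, which holds all groups. Between the single knockouts the count was 1 without a filter, with equal library medians, within lane 2 and with the length trend removed. The counts of all genes were then 780 of 18781, and 843, 1056 and 899 of 12802, respectively. Removing the length or GC trend was chosen after seeing the data.

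Replicate numbers do not pair the libraries, as the deviations of libraries with the same number correlated from -0.502 to 0.442 across genes. With the replicate block, the counts were 13, 13, 7, 16, 16, 0 (15 at an unadjusted p under 0.05) and 23. Of all 12802 genes, 2890, 2666, 2125, 2994, 3355, 424 (2608 at an unadjusted p under 0.05) and 4484 were called with this block. Leaving out 1 library at a time gave 3 to 14, 10 to 15, 5 to 7, 2 to 14, 9 to 17, 0 to 2 and 13 to 24. Without *Rnaseh2b* ΔIEC replicate 1 or 2, the count was 3 or 4 against WT and 4 or 2 for double knockout against *Rnaseh2b* ΔIEC, and without replicate 2 it was 13 for the difference of effects. Without *Atg16l1* ΔIEC replicate 3 or 4 or double knockout replicate 1, it was 9, 10 or 11 for double knockout against *Atg16l1* ΔIEC (1827, 1832 or 2574 of all 12802 genes). Between the single knockouts it was 0 without *Atg16l1* ΔIEC replicate 2 or 4 or either *Rnaseh2b* ΔIEC library. The cause of these changes was not tested beyond the fewer libraries fitted.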
